A study of Mus musculus with 30 samples.

Results

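Aquaporins are the membrane channels through which water, and in some members glycerol, crosses cell membranes. The genes described here are the 8 family members Aqp1, Aqp2, Aqp3, Aqp4, Aqp6, Aqp7, Aqp8 and Aqp11, chosen by name from the gene column of the kidney and aorta count tables, which list 41128 genes each. mRNA was sequenced from 14 aortae and 16 kidneys of male mice. The aortae came from 3 WT-SFD, 4 WT-HFD, 3 KO-SFD and 4 KO-HFD mice, and the kidneys from 4 mice in each of these groups. KO mice carried floxed Egfr together with a tamoxifen-inducible Cre recombinase driven by the Smmhc (Myh11) promoter, which is active in smooth muscle cells. In WT mice this Cre was present and the loxP sites were absent. Both genotypes received tamoxifen at 1 mg per day for 5 days, so that tamoxifen and Cre were shared by every group. Standard-fat diet (SFD) or high-fat diet (HFD) started 7 days later, at an age of 6 weeks, and lasted 18 weeks. The strain label was C57Bl6J for all mice. Each library stood for 1 mouse and is named by its group and the mouse number in its label. By these numbers, mice WT-SFD-1309, KO-SFD-1319 and KO-HFD-1504 gave both an aorta and a kidney, and genotype and diet were the same in both.

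In the kidney the family members divide the nephron among them. Aqp1 lies in the proximal tubule, the thin descending limb and the vasa recta and is also found in endothelium and red cells. Aqp2 is the vasopressin-regulated channel of the luminal membrane of collecting duct principal cells, and water leaves these cells through the basolateral channels Aqp3 and Aqp4. Aqp6 sits in vesicles of intercalated cells. Aqp7 is an aquaglyceroporin of the straight part of the proximal tubule and of adipocytes, where it releases the glycerol of lipolysis. Aqp8 passes water and also ammonia and hydrogen peroxide, and Aqp11 is an intracellular channel of the proximal tubule whose loss gives polycystic kidneys in mice.

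The results turn on Aqp7 and Aqp8, so the stretch upstream of each start site is shown, 240 bases long, on the coding strand and ending 11 bases before the start (RefSeq, GRCm38.p6). Capitals mark a match to the half-site AGGTCA of nuclear receptors, here read on the opposite strand as TGACCT. The Aqp7 stretch lies at chr4:41048147-41048386 (minus strand) and the Aqp8 stretch at chr7:123462044-123462283 (plus strand).
Aqp7: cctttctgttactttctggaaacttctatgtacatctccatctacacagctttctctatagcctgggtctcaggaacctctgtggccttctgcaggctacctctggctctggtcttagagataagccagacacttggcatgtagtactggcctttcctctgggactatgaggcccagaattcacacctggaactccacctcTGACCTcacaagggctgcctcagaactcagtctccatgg
Aqp8: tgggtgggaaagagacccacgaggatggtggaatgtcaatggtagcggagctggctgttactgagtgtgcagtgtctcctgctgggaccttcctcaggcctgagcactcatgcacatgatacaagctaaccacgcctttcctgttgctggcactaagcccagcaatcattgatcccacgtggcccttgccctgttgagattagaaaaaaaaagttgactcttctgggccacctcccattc
The motif AGGTCA, the motif GTTAAT (part of the site of hepatocyte nuclear factor 1), the motif TGACG (part of the cAMP response element) and TATAAA were searched on both strands. The Aqp7 stretch held AGGTCA once, 49 to 44 bases before the start, and none of the others, and the Aqp8 stretch held none of the 4. Of 32851 stretches of this length upstream of annotated starts, 13.5% held AGGTCA, 6.26% GTTAAT, 16.9% TGACG and 12.1% TATAAA. A second annotated start of Aqp7, further into the gene, had the same match 223 to 218 bases and another one 101 to 96 bases before it. Among the 7 members with an entry, Aqp3 had TATAAA 29 to 24 bases, Aqp2 had TGACG 211 to 207 bases and Aqp11 had AGGTCA 230 to 225 bases before the start. A match is a run of letters and not a measured binding site.

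By position in GRCm38 (GENCODE vM21), 2 pairs of members are neighbours. Aqp7 (chromosome 4, 41033074 to 41048139, minus strand) and Aqp3 (41092722 to 41098183, minus strand) are 44582 bases apart. Aqp2 (chromosome 15, 99579055 to 99584547, plus strand) and Aqp6 (99601400 to 99605477, plus strand) are 16852 bases apart, with the family member Aqp5 between them. Aqp1 lies on chromosome 6 (55336432 to 55348555, plus strand), Aqp11 on chromosome 7 (97724006 to 97738289, minus strand) and Aqp8 on the same chromosome (123462291 to 123468004, plus strand). Counts were summed over the exons of each gene. Aqp4 alone shared its position with another annotated gene, on the opposite strand.

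The knockout was checked with Egfr itself (chromosome 11, 16752203 to 16918158, plus strand). Values per library are given as FPM, the fragments counted for a gene after scaling of the libraries with edgeR's TMM factors. In the aorta, Egfr was at 46.7, 39.5 and 54.3 FPM in WT-SFD, 65.1, 57.0, 51.2 and 57.0 in WT-HFD, 26.8, 35.5 and 28.0 in KO-SFD and 27.5, 40.6, 39.7 and 33.4 in KO-HFD. On each diet, all KO aortae lay below all WT aortae. Egfr was lower in KO than in WT aortae over both diets (log2 fold change −0.67, edgeR quasi-likelihood test, adjusted p = 0.0141), while the comparisons on SFD (−0.64, edgeR adjusted p = 0.547) and on HFD (−0.70, edgeR adjusted p = 0.129) did not pass. Without mouse KO-SFD-1319 or without mouse KO-SFD-1507 the first value was −0.63 or −0.62 (edgeR adjusted p = 0.0514 and 0.0948). With library totals in place of TMM it was −0.49 (edgeR adjusted p = 0.214). In the kidney, where smooth muscle is a small part of the tissue, Egfr did not pass the test between genotypes over both diets (log2 fold change −0.00162, edgeR adjusted p = 0.999).

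Kidney libraries held 16354880 to 28331314 counted fragments and aorta libraries 6403699 to 13052870. The 8 aquaporins took 0.158% to 0.311% of a kidney library and 0.00725% to 0.0158% of an aorta library. All 8 passed the filter on low counts in the kidney, where 15034 genes were tested, and Aqp1, Aqp7 and Aqp11 passed in the aorta, where 14796 were tested. In both tables every gene of chromosomes 9, X and Y, of the mitochondrial genome and of the last part of chromosome 8 stands at 0. These are taken as unmeasured and are not analysed here, among them the vasopressin receptor gene Avpr2, the family member Aqp9 and, of the marker lists, Cdh13, Tagln and Cnn1.

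To compare levels between genes, FPM was divided by the exon length of each gene (FPKM). In the kidney, Aqp2 was at 605 ± 243 FPKM (SD, n = 16), Aqp1 at 481 ± 64.7, Aqp3 at 83.5 ± 11.7 and Aqp6 at 31.4 ± 8.99. Below these came Aqp7 at 13.2 ± 2.73 FPKM, Aqp4 at 12.3 ± 5.11, Aqp11 at 5.09 ± 0.688 and Aqp8 at 0.952 ± 0.768. Neighbours in this order were separated in all 16 kidneys except for Aqp2 and Aqp1, where Aqp2 was the higher in 10 of 16, Aqp7 and Aqp4, where Aqp7 was the higher in 8 of 16, and Aqp4 and Aqp11, where Aqp4 was the higher in 13 of 16. By group, and by exon length, Aqp7 was above Aqp4 in 4 of 4 WT-SFD and 3 of 4 KO-SFD kidneys, and in 0 of 4 WT-HFD and 1 of 4 KO-HFD kidneys. The place of Aqp11 depended on the length used, since its annotated exons are long: by the longest coding transcript it was at 12.8 FPKM, next to Aqp7 at 14.7 and Aqp4 at 15.1. The order of the Aqp7 and Aqp4 means thus also turned with the length, with Aqp4 the higher in 8 of 16 kidneys. Counts by group were not made for that length.

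In the aorta the order was another one. Aqp1 stood at 32.1 ± 6.12 FPKM (SD, n = 14), above Aqp7 at 3.90 ± 6.32 FPKM in all 14 aortae. The Aqp7 mean was raised by a few libraries, with a median of 0.903 and a highest value of 21.2 FPKM. Aqp2 at 0.206 FPKM and Aqp11 at 0.148 FPKM had a count in every aorta, Aqp3 had one in 7 of 14 and Aqp4 in 4 of 14. By the longest coding transcript Aqp11 was at 0.372 FPKM and above Aqp2 in 11 of 14 aortae. No fragment of Aqp6 or Aqp8 was counted in any aorta, which in a library allows up to 0.24 to 0.433 FPM (3 counts). Levels of the 2 tissues came from tables made at different sites and were not tested against each other.

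**Figure D1:**
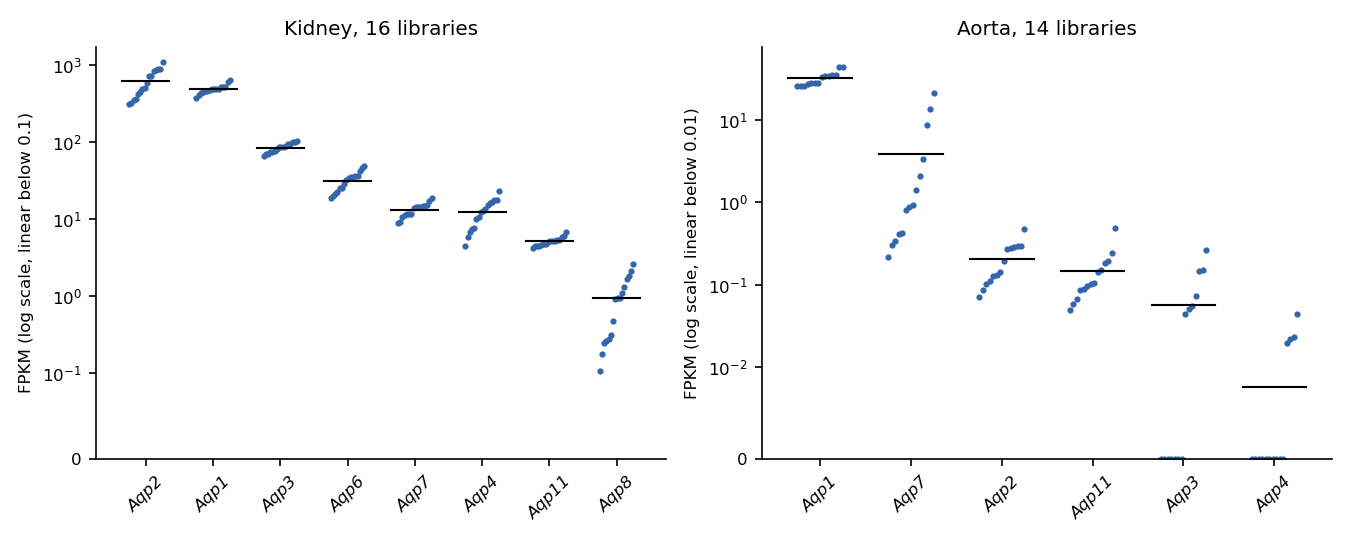
Level per exon length (FPKM) of the aquaporins in each kidney and aorta library, on an axis that is logarithmic above 0.1 FPKM for the kidney and above 0.01 FPKM for the aorta and linear below. Each point is a library and each line a mean. Aqp2 and Aqp1 share the top of the kidney panel with means of 605 and 481 FPKM, and Aqp1 leads the aorta panel at 32.1 FPKM, with Aqp6 and Aqp8, at 0, left out.

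Between libraries of a tissue the members varied to unequal degrees. In the kidney the coefficient of variation of FPM over 16 libraries was 13.5% for Aqp1, 13.5% for Aqp11, 14.1% for Aqp3, 20.7% for Aqp7, 28.7% for Aqp6, 40.2% for Aqp2, 41.7% for Aqp4 and 80.7% for Aqp8, the member with the fewest counts (3 to 97 per library). In the aorta it was 19.1% for Aqp1, 77.0% for Aqp11 and 162% for Aqp7. Aqp7 thus had the widest spread of the 3 in the aorta, with 60.1 FPM in the highest and 0.612 in the lowest library.

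Before the comparisons, libraries that stood apart were looked for. The kidneys of mice WT-SFD-1695, KO-HFD-1520 and KO-HFD-1558 held 156, 98.8 and 171 FPM in sum for 9 measured markers of the thin limb and vasa recta, structures of the inner medulla, against 222 to 549 FPM in the other 13 kidneys. The same 3 kidneys held 13852 to 16957 FPM for 10 markers of the convoluted proximal tubule, against 9285 to 12994 FPM in the others. Aqp2 was at 434 to 510 FPM in them and at 491 to 1513 FPM in the other 13. Whether a different region of the kidney was sampled was not tested. Diet results of Aqp7, Aqp8 and the gene lists are therefore also given without these 3 kidneys. For the other members, fold changes without them are given at the end, and only where the sign turned. The omission leaves 3 WT-SFD and 2 KO-HFD kidneys, a choice made after the data had been seen.

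**Figure D2:**
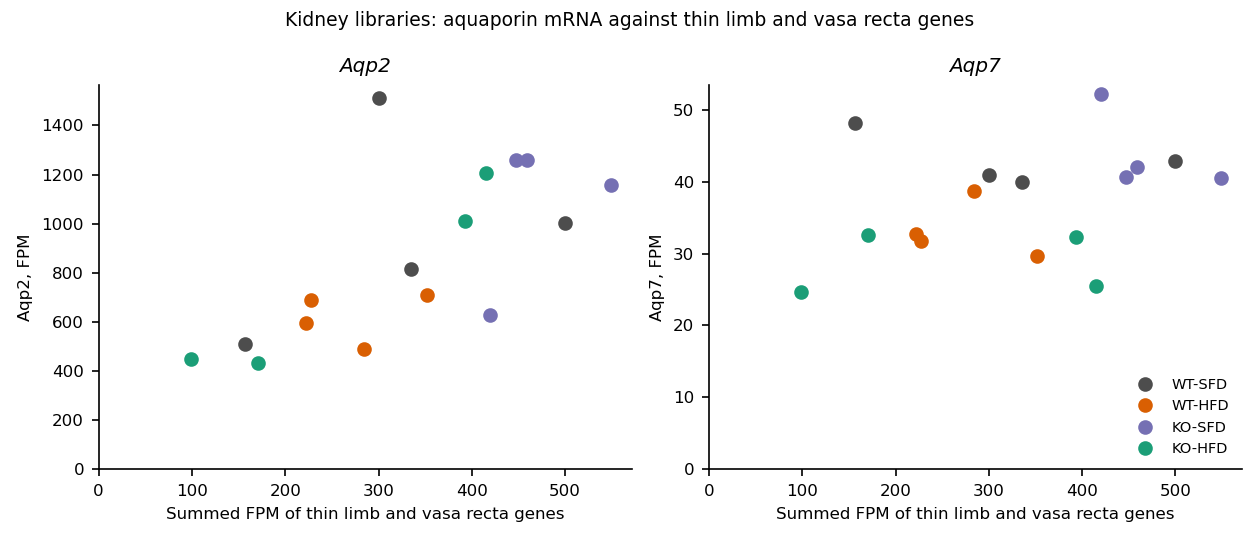
FPM of Aqp2 and of Aqp7 in each kidney against the summed FPM of 9 thin limb and vasa recta markers, coloured by group. The kidneys of mice WT-SFD-1695, KO-HFD-1520 and KO-HFD-1558, at 156, 98.8 and 171 FPM in sum, lie at the left, where Aqp2 was between 434 and 510 FPM.

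Whether the diet changed aquaporin mRNA in the kidney was asked in each genotype and over both. Over both genotypes Aqp7 and Aqp8 were lower on HFD than on SFD. Aqp7 fell by 0.49 on the log2 scale, to 0.711 of its SFD level, and Aqp8 fell by 2.14, to 0.227 of its SFD level. The Aqp8 value rests on few counts in the HFD kidneys, a limit given with its values below. No aquaporin was called higher. At an edgeR adjusted p under 0.05 these were 2 of the 8 members, where 4.48% of all genes tested passed in either direction and 1.6% passed as lower. In KO kidneys Aqp7 and Aqp8 passed as well (2 of 8 members, with 2.3% of all genes passing and 0.772% as lower), and in WT kidneys none passed (0 of 8, with 0.911% of all genes passing). At an unadjusted p under 0.05 stood 3 members in WT, 3 in KO and 6 over both genotypes, where 7.9%, 15.8% and 17.9% of all genes did. DESeq2 called 1, 3 and 3 members, and 1.75%, 4.62% and 7.33% of all genes. Fewer cells of a type and less RNA per cell cannot be told apart in whole tissue.

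**Figure D3:**
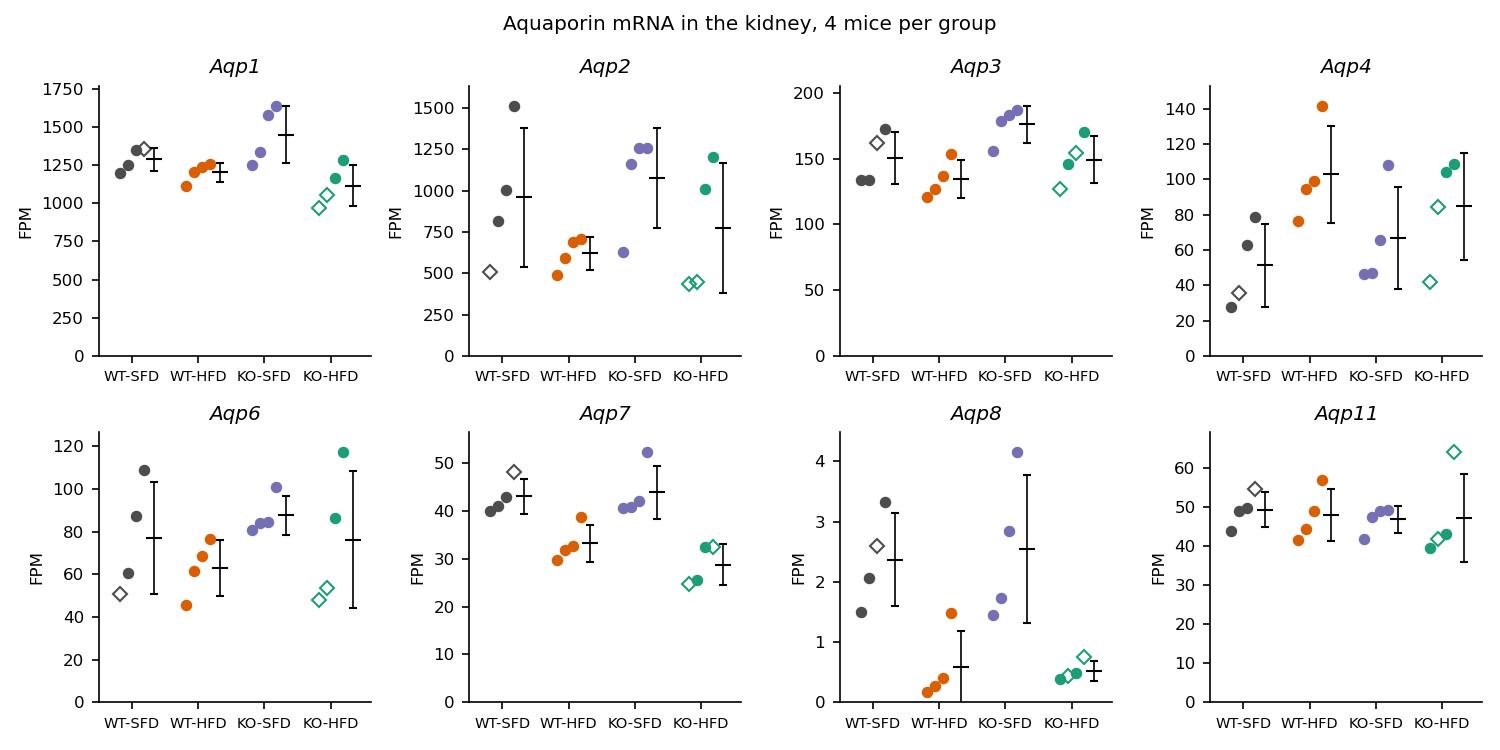
FPM of each of the 8 aquaporins in the 16 kidney libraries, by group, with bars for mean ± SD (n = 4, cut off at 0 for Aqp8) and open diamonds for the kidneys of mice WT-SFD-1695, KO-HFD-1520 and KO-HFD-1558. In the Aqp7 and Aqp8 panels the HFD libraries lie below the SFD libraries of the same genotype, with a highest HFD value in WT of 38.7 against a lowest SFD value of 40.0 FPM for Aqp7.

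Aqp7, the glycerol channel of the straight proximal tubule, was at 40.0, 41.0, 42.9 and 48.1 FPM in WT-SFD kidneys and at 29.7, 31.8, 38.7 and 32.7 FPM in WT-HFD kidneys. KO-SFD kidneys had 40.6, 40.7, 52.1 and 42.0 FPM and KO-HFD kidneys 32.3, 25.5, 24.6 and 32.5 FPM. The diets did not overlap in either genotype. As mean ± SD (n = 4), WT went from 43.0 ± 3.63 FPM on SFD to 33.2 ± 3.85 FPM on HFD, and KO from 43.8 ± 5.57 FPM to 28.7 ± 4.27 FPM. The log2 fold change was −0.37 in WT (SE 0.120, edgeR adjusted p = 0.265), −0.61 in KO (SE 0.120, edgeR adjusted p = 0.0109) and −0.49 over both genotypes (SE 0.0849, edgeR adjusted p = 0.00209). Without the kidneys of mice WT-SFD-1695, KO-HFD-1520 and KO-HFD-1558 the values were −0.58 in KO (edgeR adjusted p = 0.111) and −0.45 over both genotypes (edgeR adjusted p = 0.0228), so that the call in KO was lost. In that fit 0.587% of all genes passed in KO, in place of 2.3%, and 1.97% over both genotypes, in place of 4.48%.

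Aqp8 was the least abundant member and its range was wide. It had 24 to 97 counts per library in WT-SFD and 30 to 77 in KO-SFD kidneys. On HFD it had 3 to 31 counts in WT and 7 to 15 in KO kidneys. Aqp8 thus passed the filter on low counts mainly through the SFD kidneys, the diet on which it was high. Its call as lower on HFD is to be read with that limit. WT-SFD kidneys had 2.06, 1.51, 3.32 and 2.60 FPM and WT-HFD kidneys 0.278, 0.408, 0.171 and 1.48 FPM. In KO-SFD kidneys it was at 1.45, 4.15, 1.74 and 2.84 FPM and in KO-HFD kidneys at 0.488, 0.389, 0.443 and 0.754 FPM. Again the diets did not overlap in either genotype, although mouse WT-HFD-1642 on HFD (1.48 FPM) came close to mouse WT-SFD-1446 on SFD (1.51 FPM). The log2 fold change was −2.0 in WT (SE 0.510, edgeR adjusted p = 0.0915), −2.28 in KO (SE 0.523, edgeR adjusted p = 0.0280) and −2.14 over both genotypes (SE 0.365, edgeR adjusted p = 0.00189). DESeq2 called the WT value (adjusted p = 0.00986), so that this call depended on the tool. Without mouse WT-HFD-1642 the WT value was −3.03 and passed (edgeR adjusted p = 0.00342). The KO call was lost when mouse KO-SFD-1318, KO-SFD-1451, KO-HFD-1437, KO-HFD-1504, KO-HFD-1520 or KO-HFD-1558 was left out, with log2 fold changes of −2.52 to −1.94 and edgeR adjusted p values up to 0.106. It was also lost without the 3 kidneys low in thin limb markers (−2.50, edgeR adjusted p = 0.201), whereas the value over both genotypes stayed past the threshold (−2.24, edgeR adjusted p = 0.0235).

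Lack of overlap is itself common among genes. In WT, 1.99% of all genes tested were lower on HFD with no overlap between the diets, and in KO 3.85% were. Aqp7 and Aqp8 were the only members without overlap in WT and in KO.

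Aqp1, the constitutive water channel of the proximal tubule and thin descending limb, was at 1200, 1252, 1346 and 1355 FPM in WT-SFD, 1112, 1205, 1258 and 1235 in WT-HFD, 1335, 1638, 1578 and 1249 in KO-SFD and 1282, 1163, 967 and 1052 in KO-HFD kidneys. KO-HFD kidneys were the lowest on average, and they overlapped KO-SFD kidneys through mice KO-HFD-1437 and KO-SFD-1451. Without mice KO-HFD-1520 and KO-HFD-1558, which stood apart, the KO-HFD median was 1223 FPM. The medians of WT-HFD and KO-SFD kidneys were 1220 and 1456 FPM. The log2 fold change with HFD was −0.10 in WT (edgeR adjusted p = 0.963), −0.38 in KO (edgeR adjusted p = 0.107) and −0.24 over both genotypes (95% interval −0.41 to −0.06, edgeR adjusted p = 0.114). DESeq2 called the KO value (adjusted p = 0.0140) and the value over both genotypes (adjusted p = 0.0244), so that the call depended on the tool. Under the alternatives beside single omissions, the KO value ran from −0.38 to −0.23. The value over both genotypes ran from −0.24 to −0.15.

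The channels of the principal cell did not pass the test in any diet comparison. Aqp2 was at 817, 1513, 1002 and 510 FPM in WT-SFD, 708, 690, 491 and 594 in WT-HFD, 1159, 1259, 627 and 1260 in KO-SFD and 1009, 1206, 450 and 434 in KO-HFD kidneys. The spread within 3 of the groups was over 2-fold in each, and the log2 fold change over both genotypes was −0.55 with a 95% interval of −1.09 to −0.01 (edgeR adjusted p = 0.246). Aqp3, which also passes glycerol, ran from 121 to 187 FPM and had a log2 fold change of −0.20 (interval −0.38 to −0.02, edgeR adjusted p = 0.197). Aqp4 was the member with positive estimates in both genotypes. It was at 78.6, 27.8, 62.9 and 35.8 FPM in WT-SFD, 142, 76.6, 99.0 and 94.8 in WT-HFD, 108, 46.6, 47.1 and 65.8 in KO-SFD and 104, 109, 41.8 and 84.4 in KO-HFD kidneys. WT-HFD kidneys overlapped WT-SFD kidneys through mice WT-SFD-1309 and WT-HFD-1613. The log2 fold change of Aqp4 was 1.00 in WT (interval 0.23 to 1.77, edgeR adjusted p = 0.354), 0.34 in KO (edgeR adjusted p = 0.671) and 0.67 over both genotypes (interval 0.13 to 1.21, edgeR adjusted p = 0.149). The KO value ran from 0.19 to 0.67 with 1 library left out, and up to 0.68 under the other alternatives. An antisense gene shares the position of Aqp4, and reads of the strands cannot be told apart here, since the strand setting of the counting is not stated.

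Aqp6, the intercalated cell member, ran from 45.5 to 117 FPM, with a log2 fold change of −0.24 over both genotypes (interval −0.65 to 0.16, edgeR adjusted p = 0.535). Aqp11 ran from 39.6 to 64.1 FPM, with −0.02 (interval −0.23 to 0.20, edgeR adjusted p = 0.953). The median log2 fold change of the 8 members was −0.23 in WT, −0.31 in KO and −0.24 over both genotypes, where the median of all genes tested was −0.01.

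**Figure D4:**
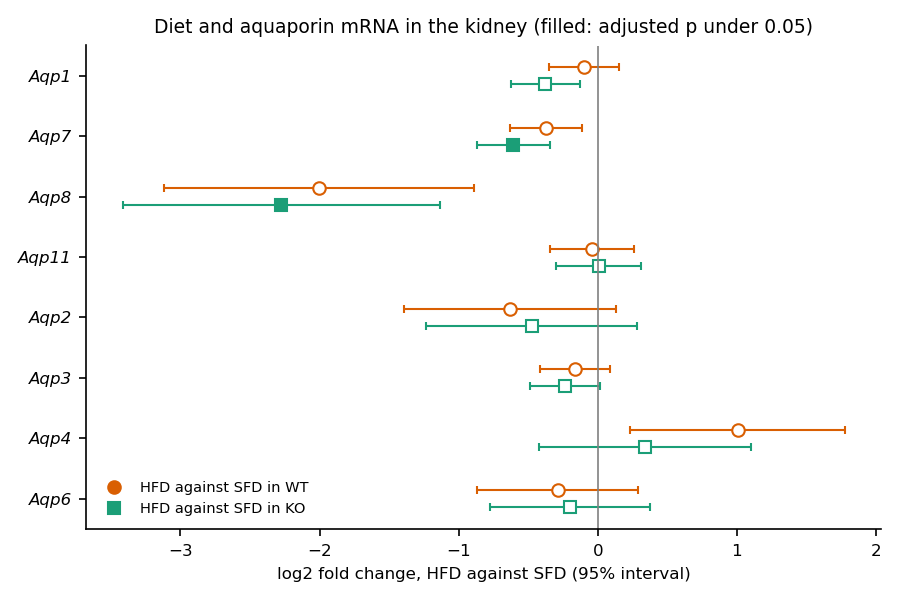
log2 fold change of each aquaporin between HFD and SFD kidneys, WT as circles and KO as squares, with 95% intervals; filled symbols passed an edgeR adjusted p under 0.05. Aqp7 and Aqp8 in KO are filled, at −0.61 and −2.28, and Aqp4 is to the right of 0 in both genotypes, at 1.00 and 0.34.

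KO and WT kidneys were then compared on each diet. No aquaporin passed on SFD (log2 fold changes −0.07 to 0.38, smallest edgeR adjusted p = 0.619, with 0.0133% of all genes passing), on HFD (−0.28 to 0.32, smallest edgeR adjusted p = 1.00, with 0.00665% of all genes passing) or over both diets (−0.09 to 0.24, smallest edgeR adjusted p = 0.851, with 0.0133% of all genes passing). The diet effect was also compared between the genotypes, with no member past the threshold (differences of −0.66 to 0.16 on the log2 scale, smallest edgeR adjusted p = 1.00, and 0% of all genes passing). At an unadjusted p under 0.05 stood 0 members on SFD, 0 on HFD, 1 over both diets and 0 in the difference, where 8.37%, 1.65%, 5.69% and 3.23% of all genes did. DESeq2 called 0 members in each, and 0.173%, 0.00665%, 0.0998% and 0.00665% of all genes. That Aqp7 and Aqp8 passed in KO and not in WT is hence not shown to be a difference between the genotypes.

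Genes that work with the aquaporins were taken from lists fixed together with the members. Over both genotypes, 2.89% of all genes tested passed as higher and 1.6% as lower. Of 25 tested genes of the vasopressin and water pathway, 1 passed as higher over both genotypes, Akap7, an anchor of protein kinase A (log2 fold change 0.30, edgeR adjusted p = 0.0497), and 0 as lower. The list's median was 1.13e-05. None of 9 osmotic stress genes passed (7 with a negative estimate, median −0.36), among them the taurine transporter gene Slc6a6 and the inositol transporter gene Slc5a3, the most abundant. Of 9 tested genes of glycerol handling, Agpat9, an acyltransferase of glycerol 3-phosphate, was higher (0.58, edgeR adjusted p = 0.0307) and Pnpla2, the gene of adipose triglyceride lipase, was lower (−0.42, edgeR adjusted p = 0.0296). The median of that list was −0.30. Without the kidneys of mice WT-SFD-1695, KO-HFD-1520 and KO-HFD-1558 no gene of these 3 lists passed, where 1.97% of all genes did.

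Markers of the nephron segments moved unequally over both genotypes, where 2.89% of all genes passed as higher and 1.6% as lower. Of 10 markers of the convoluted proximal tubule 5 were higher on HFD and 0 lower, led by Slc5a2, the gene of the glucose transporter SGLT2 (log2 fold change 1.37, edgeR adjusted p = 2.1e-05), with Slc7a7, a transporter of cationic amino acids (0.85, edgeR adjusted p = 0.000335), and Slc2a2, the gene of GLUT2 (0.63, edgeR adjusted p = 0.00124). Of 10 markers of the straight proximal tubule, where Aqp7 is found, 0 were higher and 2 lower, Acsm3, a medium-chain acyl-CoA synthetase (−1.09, edgeR adjusted p = 0.000507), and Slc22a19, an organic anion transporter (−0.68, edgeR adjusted p = 0.0167), and 9 had a negative estimate (median −0.25). Without the 3 kidneys low in thin limb markers these counts were 3 higher and 0 lower, and 0 higher and 1 lower, where 1.97% of all genes passed in either direction. The part of the segment makeup in the lower Aqp7 was not tested.

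In the collecting duct, 0 of 7 tested principal cell markers passed, with Tfcp2l1 and Rhcg the most abundant, and of 10 intercalated cell markers Car2, a carbonic anhydrase, was higher (0.36, edgeR adjusted p = 0.0296). The thick ascending limb had 1 of 9 lower, Umod, the gene of uromodulin (−0.41, edgeR adjusted p = 0.0494). The distal convoluted tubule had 2 of 10 higher, Pvalb (1.23, edgeR adjusted p = 0.000427) and Slc12a3, the gene of the thiazide-sensitive cotransporter (0.40, edgeR adjusted p = 0.0308), and 1 lower, the kinase gene Wnk4 (−0.35, edgeR adjusted p = 0.00705). Of 9 thin limb and vasa recta markers 0 passed, with all 9 estimates negative (median −0.54), and of 10 podocyte markers Magi2 was higher (0.93, edgeR adjusted p = 0.000403). Among markers of cells outside the nephron, 4 of 12 adipocyte genes passed, Lep (4.0) and Pck1 (1.00), which the proximal tubule also uses for gluconeogenesis, as higher and Lpl (−1.07) and Cfd (−3.87) as lower, with edgeR adjusted p values of 0.000911, 0.0469, 0.00246 and 0.00986. No marker passed on the lists for endothelium (of 10), smooth muscle (of 5), brown adipocytes (of 8), cardiac muscle (of 6), Schwann cells (of 6), blood (of 6), leucocytes (of 9) or fibroblasts (of 8), and on that for skeletal muscle Pvalb, shared with the distal tubule list, was the 1 of 5 that passed. Without the 3 kidneys low in thin limb markers, the counts were 0 for the intercalated cell and thick ascending limb lists, 1 higher and 0 lower for the distal tubule, 1 higher for podocytes and 2 higher and 0 lower for adipocytes.

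Across the 16 kidneys some members varied together. Pearson's r of log2 values was 0.77 for Aqp1 and Aqp7, 0.76 for Aqp2 and Aqp6, and 0.69 for Aqp7 and Aqp8, a description over libraries that share groups and tissue composition. Against the means of all the gene lists, Aqp1 had its highest r with the thick ascending limb list (0.79) and its lowest with the convoluted proximal tubule list (−0.82), and had 0.59 with the straight proximal tubule list. The highest and lowest r of Aqp2 were those with the principal cell (0.83) and podocyte lists (−0.83), followed at the upper end by the osmotic stress list (0.79). Aqp6 likewise had its highest with the principal cell (0.76) and its lowest with the podocyte list (−0.80), and had −0.05 with the intercalated cell list. For Aqp7 they were the straight (0.81) and convoluted proximal tubule lists (−0.74), and for Aqp8 the same lists (0.62 and −0.74). Aqp3 had its highest with the thick ascending limb (0.52) and its lowest with the podocyte list (−0.72), and had 0.48 with the principal cell list. Those of Aqp4 were the leucocyte (0.64) and intercalated cell lists (−0.82), with 0.16 for the principal cell list. Those of Aqp11 were the blood (0.49) and vasopressin lists (−0.74), with 0.21 and 0.18 for the convoluted and straight proximal tubule lists. The genes most like each member over the 16 kidneys, by r, were P2rx5 (0.93), Tsen54 and Col16a1 for Aqp1, Nupr1 (0.93), Cdkn2b and Fbxo2 for Aqp2, Hcn2 (0.90), Nkiras2 and Cdc42se1 for Aqp3, and Pip4k2a (0.89), Plekha2 and Hace1 for Aqp4. They were Arl4d (0.90), Lnx1 and Capn1 for Aqp6, Slc41a2 (0.93), Creb3l1 and Acox2 for Aqp7, and Tmem174 (0.88), Gm5560 and Sp5 for Aqp11. Aqp8 was below the level set for this.

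In vessels, Aqp1 is known from the endothelium and Aqp7 from the adipocytes of the surrounding fat. Over both genotypes Aqp7 was lower on HFD than on SFD, with a log2 fold change of −2.84, or 0.140 of its SFD level. That was 1 of the 3 members tested, where 3.79% of all genes passed in either direction and 3.47% as lower. The call was lost without 3 libraries rich in adipocyte transcripts, and also when any of 12 single libraries was left out, as set out below. Aqp1 and Aqp11 did not pass.

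The aortae of mice WT-SFD-1309, WT-SFD-1310 and KO-SFD-1319 stood apart. For a list of 12 adipocyte genes they held 6126, 5013 and 3814 FPM in sum, against 477 to 1343 FPM in the other 11 aortae. None of the 12 was at 0 throughout, the most abundant were Plin4, a lipid droplet protein, and Lpl, lipoprotein lipase, and Plin4 was also at 318 FPM or more in every other aorta. The 9 measured brown adipocyte genes summed to 640 to 1257 FPM in the 3 aortae and to 32.4 to 310 FPM in the others. For 6 measured smooth muscle genes the sum was 10883 to 13463 FPM against 16160 to 19517 FPM, for 8 fibroblast genes 2559 to 3000 FPM against 3700 to 5262 FPM, and for 7 measured blood genes 13.8 to 29.3 FPM against 172 to 845 FPM. Results are given with and without these 3 aortae, a choice made after the data had been seen.

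WT-SFD aortae had 60.1, 38.7 and 2.31 FPM of Aqp7, and those of WT-HFD mice had 0.612, 1.21, 3.96 and 9.46 FPM. KO-SFD aortae had 24.4, 5.85 and 1.18 FPM and KO-HFD aortae 0.856, 2.63, 2.48 and 0.958 FPM. The 3 highest values were those of the 3 aortae rich in adipocyte transcripts, and the diets overlapped in both genotypes. The log2 fold change was −3.19 in WT (SE 0.975, edgeR adjusted p = 0.109), −2.49 in KO (SE 1.06, edgeR adjusted p = 0.621) and −2.84 over both genotypes (SE 0.719, edgeR adjusted p = 0.0408). Without the 3 aortae it was −0.10 over both genotypes (edgeR adjusted p = 0.994), and 0 of 15997 genes tested passed, in place of 561. That omission leaves 1 WT-SFD and 2 KO-SFD aortae. With it the log2 fold change of Aqp7 in WT turned to 0.69. In KO the Aqp7 median was then 3.51 FPM on SFD and 1.72 FPM on HFD. With 1 library left out at a time, the call held without mouse WT-SFD-1445 or KO-SFD-1507 and was lost without any of the other 12, at log2 fold changes of −3.31 to −2.02 and edgeR adjusted p values up to 0.238. Across the 14 aortae, r between Aqp7 and the mean of the adipocyte list was 0.94, and with the smooth muscle list −0.87. Other lists had values as high: glycerol handling 0.95, straight proximal tubule 0.93, vasopressin pathway 0.93 and endothelium 0.87.

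**Figure D5:**
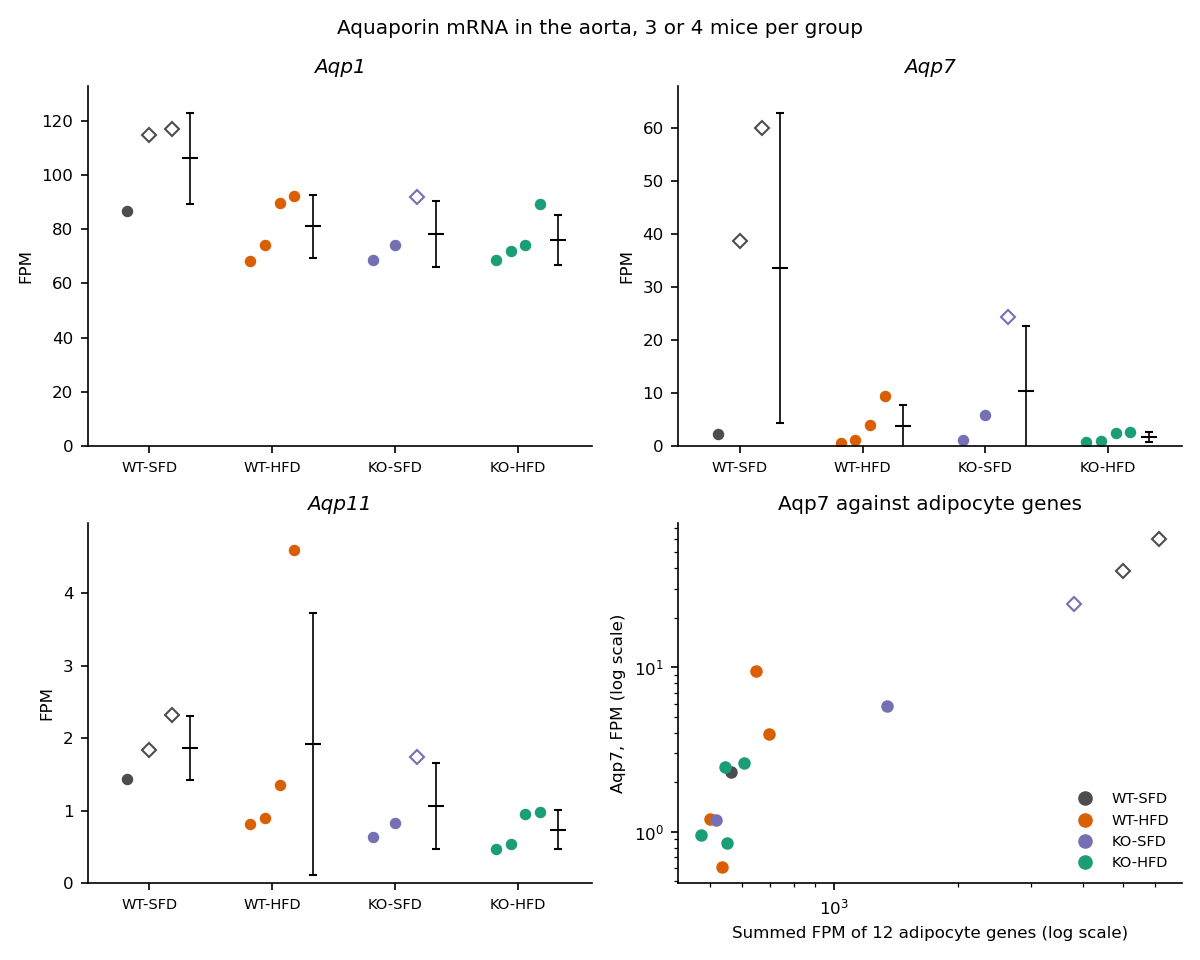
FPM of Aqp1, Aqp7 and Aqp11 in the 14 aorta libraries by group, with bars for mean ± SD (cut off at 0 for Aqp7) and open diamonds for mice WT-SFD-1309, WT-SFD-1310 and KO-SFD-1319, and Aqp7 against the summed FPM of 12 adipocyte genes on log axes. The 3 diamonds hold the highest Aqp7 values, 60.1, 38.7 and 24.4 FPM, and the highest adipocyte sums.

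Other genes of fat moved the same way over both genotypes, where 0.318% of all genes passed as higher and 3.47% as lower. Of the 12 adipocyte genes 0 were higher and 10 lower on HFD, among them Cfd, the gene of adipsin (−4.34), Retn, of resistin (−4.66), and Lpl (−3.27), each with an edgeR adjusted p of 0.0208. Of 9 tested genes of glycerol handling, the pathway that Aqp7 serves, 8 were lower, among them Pnpla2 (−2.27), Agpat2 (−3.03) and the hormone-sensitive lipase gene Lipe (−2.95), each also with an edgeR adjusted p of 0.0208. Lipe and Plin1 stand on both lists. Of 9 tested brown adipocyte genes 6 were lower, led by Cidea (−3.54, edgeR adjusted p = 0.0208). Without the 3 aortae no gene of the 3 lists passed, and their medians went from −3.51 to −0.39, from −2.67 to −0.30 and from −3.01 to −0.01. On the vasopressin list, 3 of 23 tested genes were lower, Prkar2b (−3.45), Myo5b (−2.44) and Ptger3 (−1.89), of which Prkar2b and Ptger3 are also known from adipocytes, and none passed without the 3 aortae.

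For other cell types, 1 of 10 endothelial markers was lower, Kdr (−2.75, edgeR adjusted p = 0.0208), and 1 of 6 cardiac markers, Actc1 (−3.19, edgeR adjusted p = 0.0386). Also lower were 1 of 4 and 2 of 3 tested genes of the convoluted and straight proximal tubule lists, Slc4a4 (−1.12), Acsm3 (−3.53) and Slc27a2 (−4.75). Of all genes tested, 3.47% passed as lower. The fit holds the 3 aortae rich in adipocyte transcripts, so the limit given for Aqp7 applies to these calls too. None passed of 6 smooth muscle, 8 fibroblast, 8 leucocyte, 7 blood, 7 Schwann cell, 4 skeletal muscle, 7 podocyte, 8 osmotic stress, 3 principal cell, 3 intercalated cell, 6 distal tubule, 6 thin limb or 1 thick ascending limb genes. The blood list's median was 1.19, with all 7 estimates positive.

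Aqp1 was at 117, 115 and 86.6 FPM in WT-SFD, 68.4, 74.1, 89.6 and 92.3 in WT-HFD, 91.9, 68.7 and 74.3 in KO-SFD and 71.9, 68.7, 74.2 and 89.2 in KO-HFD aortae. The 2 highest values were those of the pair of WT aortae rich in adipocyte transcripts, and the groups overlapped. The log2 fold change with HFD was −0.39 in WT (edgeR adjusted p = 0.197), −0.04 in KO (edgeR adjusted p = 0.968) and −0.22 over both genotypes (edgeR adjusted p = 0.292). Without the aorta of mouse WT-SFD-1445, the WT-SFD group held only the pair of aortae rich in adipocyte transcripts. In that fit the WT values passed for Aqp1 (−0.51, edgeR adjusted p = 0.0376) and for Aqp7 (−3.74, edgeR adjusted p = 0.00737). The share of all genes passing in it is not given here, so these calls are not set against a background. Without the 3 aortae rich in adipocyte transcripts, Aqp1 was at 0.000586 over both genotypes. Aqp11 ran from 0.470 to 4.60 FPM, on 4 to 36 counts, with a log2 fold change of −0.24 over both genotypes (edgeR adjusted p = 0.818).

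Within each genotype, 0 of the 3 aquaporins passed between diets, and 0% of all genes passed in WT and 0% in KO. At an unadjusted p under 0.05 stood 2 members in WT and 1 in KO, where 16.7% and 7.47% of all genes did, and DESeq2 called no member and 4.5% and 0.0587% of all genes. Between genotypes none passed on SFD (log2 fold changes −1.72 to −0.44, smallest edgeR adjusted p = 0.776, with 0.0811% of all genes passing), on HFD (−1.32 to −0.09, smallest edgeR adjusted p = 0.956, with 0.0811% passing) or over both diets (−1.37 to −0.27, smallest edgeR adjusted p = 0.702, with 0.196% passing). The diet effects of KO and WT differed by −0.49 to 0.70 on the log2 scale, with no member past the threshold (smallest edgeR adjusted p = 1.00, and 0% of all genes passing). At an unadjusted p under 0.05 stood 1 member on SFD, 1 on HFD, 2 over both diets and 0 in the difference, where 6.14%, 5.04%, 6.9% and 4.1% of all genes did. DESeq2 called no member and 0.142%, 0.27%, 0.429% and 0.0135% of all genes. The widest estimate on HFD was that of Aqp11 (−1.32), with 1 WT library far above the rest of its group, and without that library (WT-HFD-1448) it was −0.46.

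The genes most like Aqp1 over the 14 aortae, by Pearson's r, were Vdac1 (0.95), BC002163 (0.92) and Bpnt1 (0.90). For Aqp7 they were Fbxo21 (0.97), Gm15801 (0.97) and Gm8783 (0.96). These values are descriptions over libraries of which 3 stand apart.

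Of the family members outside the list, Aqp5 ran from 0.171 to 1.95 FPM in the kidney and from 0 to 0.402 FPM in the aorta. Its log2 fold change with HFD was −0.51 over both genotypes in the kidney (interval −1.63 to 0.61, edgeR adjusted p = 0.648). Mip, the lens member, had no more than 1 count in a kidney and none in an aorta, and Aqp12, a pancreatic member, had 1 count in a single aorta and none in a kidney.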

How the data were processed

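mRNA of single mice was sequenced. Aorta reads were trimmed by the authors with cutadapt, and kidney reads were trimmed by the sequencing provider. The authors aligned the reads of both tissues to GRCm38/mm10 with TopHat and counted fragments per gene with featureCounts. They deposited these raw counts, without normalisation, as 1 table per tissue with 1 column per mouse. Genes were annotated with BiomaRt. The strand setting, how multiply matching reads were treated and which gene models were counted are not given in the sources used here. Sequencing was done at different sites, a university core facility for aortae and a commercial provider for kidneys, and each tissue was fitted on its own.

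Here, counts were scaled by TMM, filtered with filterByExpr and fitted with edgeR 4.0.16 (glmQLFit, glmQLFTest, all 4 groups of a tissue in 1 fit, R 4.3.3). Benjamini-Hochberg adjustment ran over every gene tested, and the limit for a call was 0.05. The median depth was 8998366 counts per aorta and 19544128 per kidney. In simulated data for HFD against SFD in WT, 2-fold and 4-fold changes were recovered for 52% and 83% of changed genes in the aorta and 65% and 92% in the kidney. Each gene was drawn on its own and the changed genes were picked at random. The simulated data thus lacked shifts shared by many genes, such as those of the aortae rich in adipocyte transcripts. The shares are no measure of the power for a gene as low as Aqp8. No library was a copy of another (smallest chi-square per gene 9.22 over 91 aorta and 9.84 over 120 kidney pairs).

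FPKM used exon lengths of GENCODE vM21, which held 40254 of the 41128 gene identifiers. Alternatives were DESeq2 1.42.0, RLE factors, library totals, no low-count filter, a fit of only the groups compared, a limit of 0.001, each library left out in turn and, chosen once the values were known, the omission of 3 aortae or 3 kidneys.

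The members and the 22 gene lists were chosen with earlier results of these data known. Named are all members, Egfr, other family genes, up to 3 genes per list and direction with the smallest p among those called (otherwise up to 2 of the most abundant), and the 3 genes with the highest r to each member with a mean of at least 5 CPM. Labels gave no replicate numbers that pair mice, and separate mice are taken from the mouse numbers. Intervals and the limit for a count of 0 cover counting or model error only.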

Additional observations from a re-analysis of the deposited data

Results flagged for a closer look

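In groups of 4 libraries, a library was marked when its distance to the nearest of the others divided by the range of the group exceeded Dixon's critical value. Of 44 groups tested for the aquaporins and Egfr, 4 were marked, where chance marks about 1 in 20. Aqp11 was at 4.60 FPM in the WT-HFD aorta of mouse WT-HFD-1448, against 0.816 to 1.36 FPM in the other 3, a distance of 0.858 of the range. In the KO-HFD kidney of mouse KO-HFD-1520, Aqp11 was at 64.1 FPM (0.852 of the range). That kidney is also 1 of the 3 low in thin limb and vasa recta markers. In the KO-SFD kidney of mouse KO-SFD-1319, Aqp2 was at 627 FPM, the lowest of its group (0.840 of the range), and Aqp7 at 52.1 FPM, the highest of its group (0.875 of the range). The aorta of mouse KO-SFD-1319 was among the 3 rich in adipocyte transcripts. No aquaporin's diet effect differed between the genotypes in either tissue by edgeR's test of the difference.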

How the results depend on the processing

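Of 14 counts of called aquaporins, that between diets over both genotypes in the kidney stood at 2 under every alternative but the limit of 0.001, under which it was 0, and DESeq2, under which it was 3. Of all genes, 0.984% passed there at the limit of 0.001 and 7.33% with DESeq2. The kidney count in WT (0) was 1 with DESeq2, where 1.75% of all genes passed, and 0 to 1 with 1 library left out. In KO (2) it was 3 with DESeq2, 0 at the limit of 0.001, 1 with only the groups compared fitted, 0 without 3 kidneys and 1 to 2 with 1 library left out, where 4.62% of all genes passed with DESeq2, 0.319% at the limit of 0.001 and 0.587% without 3 kidneys. In the aorta the count in WT (0) was 1 without the low-count filter and 0 to 2 with 1 library left out, and that over both genotypes (1) was 0 at the limit of 0.001, 0 without 3 aortae and 0 to 1 with 1 library left out. At the limit of 0.001, 0% of all aorta genes passed over both genotypes. Shares of all genes without the low-count filter, with only the groups compared or with 1 library left out are not given here. Those counts are hence not set against a background. Causes of these moves were not tested. Scaling by library totals moved the median of all aorta genes by 0.11 between diets in WT, −0.11 in KO, 0.29 between genotypes on SFD, 0.18 over both diets and −0.22 in the difference, and left Egfr at −0.49 between genotypes over both diets (edgeR adjusted p = 0.214), which is a fall relative to that shift. No paired analysis was possible because the labels give no replicate numbers that groups share.

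Of 91 log2 fold changes, 17 changed sign under an alternative other than a single omission, each of them a value that had not passed the test. Without 3 aortae, which leaves a lone WT-SFD aorta that is assumed to vary like the other groups, Aqp7 was at 0.69 between diets in WT, 0.55 between genotypes on SFD and −1.59 in the difference of the diet effect, Aqp1 at 0.088 between diets in KO and 0.000586 over both genotypes, Aqp11 at 0.040 in KO and 0.21 over both genotypes, and Egfr at 0.074 in the difference. Without 3 kidneys, Aqp11 was at 0.0033 between diets in WT, −0.16 in KO and −0.16 in the difference, Aqp2 at 0.060 and Aqp6 at 0.23 between diets in KO, Aqp2 at −0.047 between genotypes on SFD, Aqp1 at 0.045 and Aqp4 at 0.062 on HFD and Egfr at 0.0355 over both diets. Aqp11 between diets in KO kidneys was at −0.000526 with DESeq2, −0.000252 with RLE factors, −0.0106 with library totals, −0.0028 without the filter and −0.00294 with only the groups compared, and Egfr between genotypes in the kidney over both diets at 0.000144 with DESeq2 and 0.000114 with RLE factors.

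With 1 library left out at a time, 26 changed sign, again none that had passed. In the aorta, Aqp11 ran from −0.86 to 0.26 between diets in WT, −0.79 to 0.036 in KO, −0.67 to 0.022 over both genotypes and −0.84 to 0.37 in the difference, Aqp1 from −0.13 to 0.086 in KO, Aqp7 from −0.013 to 2.33 and Egfr from −0.19 to 0.045 in the difference. In the kidney, Aqp11 ran from −0.13 to 0.012 between diets in WT, −0.16 to 0.069 in KO, −0.10 to 0.012 over both genotypes, −0.19 to 0.060 between genotypes on HFD and −0.12 to 0.14 in the difference. Between genotypes on SFD, Aqp2 ran from −0.046 to 0.47, Aqp7 from −0.066 to 0.086, Aqp8 from −0.26 to 0.29 and Egfr from −0.010 to 0.17. On HFD, Aqp6 ran from −0.00503 to 0.44, Aqp8 from −0.47 to 0.84 and Egfr from −0.19 to 0.025. Over both diets, Aqp1 ran from −0.00521 to 0.068, Aqp4 from −0.11 to 0.19, Aqp8 from −0.22 to 0.46 and Egfr from −0.050 to 0.056, and in the difference Aqp2 ran from −0.15 to 0.37, Aqp6 from −0.19 to 0.26 and Aqp8 from −0.56 to 0.75. The fewest counts were those of Aqp8 in the kidney (3 to 97 per library) and Aqp11 in the aorta (4 to 36 per library) among the members tested, and the part of depth in their spread was not tested.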
